A study of Mus musculus with 2 samples.

Results

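Tcf1 binding at the genes of translation initiation and elongation factors was read from a ChIP-seq peak list of naïve CD8+ T cells of the mouse. The gene set held all protein-coding genes of the GENCODE vM1 annotation whose symbol starts with Eif and a digit, or with Eef1 or Eef2, which gave 67 of 22380 protein-coding genes. The 67 entries carry 66 symbols, since the annotation lists a short second entry of 1.78 kb for Eef2k. Of the 67 entries, 50 are factors or their subunits. The others are kinases, 4E-binding proteins, the Argonaute genes under their older names Eif2c1 to Eif2c4, and further genes that share a symbol stem, which are described beside the factors they are named after.

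The labels describe spleen CD8+ T cells sorted as GFP+, TCRbeta+, CD62Lhi and CD44lo-med and immunoprecipitated with a Tcf1 antiserum, 1 library of wild type (WT) cells and 1 library that the title calls Tcf1-deficient. The design text gives hCD2-Cre and a Rosa26-lsl-GFP reporter for both groups, with Tcf1 and Lef1 either wild type or both floxed, and the genotype field of the control reads Tcf1-/-Lef1-/-. The study's methods instead describe a control in which Cd4-Cre deleted Tcf7, the gene of Tcf1, alone. Whether the control cells also lacked Lef1 could not be settled from these sources, and the labels give neither age nor sex of the mice. The study's methods describe young adult mice of both sexes, without saying which went into these libraries. After removal of duplicates the WT library held 36938606 fragments and the Tcf1-deficient library 27625250. The authors called 22286 peaks in the WT library with the Tcf1-deficient library as control, of which 19042 met the study's criteria for a high-confidence peak (fold enrichment 4 or more, p below 1e-05, q below 0.05). All 10 CD8+ T cell markers searched held a high-confidence promoter peak, and 1 of 8 markers of other cells did, Itgam, but a peak is not a measure of expression. With 1 library per group there was no replicate check. The p of the caller compares 2 libraries and not the genotypes, so the values below are descriptions with counting intervals.

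In eukaryotic translation, eIF2 brings the initiator tRNA to the small ribosomal subunit, eIF3 and eIF1 hold the scanning complex, and the eIF4 proteins bind the cap and unwind the leader of the mRNA. eIF5B joins the subunits, after which eEF1 delivers aminoacyl-tRNAs and eEF2 moves the ribosome along the mRNA. Cells set the rate of the process mainly through kinases that phosphorylate eIF2 and through the 4E-binding proteins, which hold back the cap-binding factor eIF4E. Naïve T cells translate little and raise protein synthesis steeply after antigen contact. Tcf1 is a T cell transcription factor whose DNA-binding domain recognises the Tcf/Lef core ATCAAAG.

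The core was present near few peaks of the gene set. Among high-confidence peaks, it lay within 100 bp of the summit, on either strand, at 2 promoter peaks (Eif4a1 and Eef2). It also lay at 7 peaks inside gene bodies (1 each at Eif2a, Eif2c2 and Eif4e, and 4 at Eif4e3). Of those at Eif4e3, only the site at chr6:99593630-99593656 lies within the span of its coding transcripts. The others cannot be assigned to Eif4e3 with certainty, as described below. All 9 sites are shown 5′ to 3′ on the strand that carries the core, with mm9 coordinates and the core in capitals.
Eif4a1, chr11:69484720-69484746, plus strand: ggtctggtggATCAAAGcgcgtgcacc
Eef2, chr10:80639960-80639986, minus strand: caaagcccggATCAAAGgccacaatgc
Eif2a, chr3:58356557-58356583, plus strand: gcccttaaaaATCAAAGgaagcatgaa
Eif2c2, chr15:73013002-73013028, plus strand: cacagcaatgATCAAAGactcagtcct
Eif4e, chr3:138205742-138205768, minus strand: taactagcagATCAAAGagattaaata
Eif4e3, chr6:99211413-99211439, plus strand: catttccacaATCAAAGggtatgcaga
Eif4e3, chr6:99330442-99330468, minus strand: ttccctgtacATCAAAGgatggcagat
Eif4e3, chr6:99382051-99382077, plus strand: gatgagaaagATCAAAGagaaactgaa
Eif4e3, chr6:99593630-99593656, minus strand: tagtatcatcATCAAAGaaaataggtt
The strongest peaks of the set mostly had no exact match to this core. The 101 bases centred on the summit are shown for the strongest promoter peak (Eif4g2), for the promoter peak of Eif2ak3 and for the strongest peak inside a gene body (Eif4e3), on the strand of the gene. Capitals mark a GC box (CCCGCCC) in Eif4g2 and CCAAT letters in Eif2ak3. None of the 9 short sequences searched lay in the Eif4e3 window, which also lies beyond the span of the coding transcripts of Eif4e3.
Eif4g2, chr7:118225739-118225839, minus strand: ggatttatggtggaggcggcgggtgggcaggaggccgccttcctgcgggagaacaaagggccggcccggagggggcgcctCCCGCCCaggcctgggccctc
Eif2ak3, chr6:70794171-70794271, plus strand: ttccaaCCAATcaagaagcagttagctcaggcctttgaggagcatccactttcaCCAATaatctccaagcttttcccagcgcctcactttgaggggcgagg
Eif4e3, chr6:99436374-99436474, minus strand: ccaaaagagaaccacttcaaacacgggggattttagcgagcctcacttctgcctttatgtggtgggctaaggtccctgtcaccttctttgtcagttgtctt
A match to these letters is a description of the window, not of a bound site. Only exact matches were searched, so a window without a marked core can still hold a variant of it. The study instead scored its Tcf/Lef motif with a position-weight matrix, which also grades inexact matches.

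Most translation factor genes had Tcf1 at the promoter. A high-confidence summit lay within 1 kb of an annotated start site in 51 of 67 genes (76.1%, Wilson 95% interval 64.7 to 84.7), against 32.7% of all protein-coding genes. A summit in the gene body, over 1 kb from every start site of that gene, was found in 6 of 67 genes (8.96%, 4.17 to 18.2), and the 14.2% of all protein-coding genes lay inside that interval. The intragenic share depended on the start sites used: with only the most upstream start of each gene it was 10 of 67 (14.9%, against 16.5% of all genes), and with promoters of 500 bp 9 of 67 (13.4%, against 15.8%). Either kind was present in 53 of 67 genes (79.1%, 67.9 to 87.1), against 38.9%, and with all deposited peaks in 55 of 67 (82.1%, 71.3 to 89.4), against 42.7%. Of the 14 genes without a high-confidence peak, Eif1 and Eef2k held only a peak under the fold minimum and 12 held no deposited peak. Without the Argonautes, kinases, 4E-binding proteins and other symbols that are not factors or their subunits, 42 of 50 genes (84%, 71.5 to 91.7) had a promoter peak.

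The excess over the background lay in peaks of low fold enrichment. The strongest promoter peak had a fold enrichment from 4 to under 8 in 41 of 67 genes (61.2%, 49.2 to 72.0), against 21.0% of all protein-coding genes. It reached 8 or more in 10 of 67 genes (14.9%, 8.31 to 25.3), and the background of 11.7% lay inside that interval. With a q under 1e-10, 58.2% of the genes (46.3 to 69.3) had a promoter peak, against 28.0%. At fold 8 or more, cytosolic ribosomal protein genes had 28 of 84 (33.3%, 24.2 to 43.9) and mitochondrial ribosomal protein genes 20 of 76 (26.3%, 17.7 to 37.2). Both intervals overlapped that of the translation factors, and the differences were not tested. Transcript levels were not measured in these libraries, so the part that expression or open chromatin at housekeeping promoters has in the shares was not tested.

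**Figure D1:**
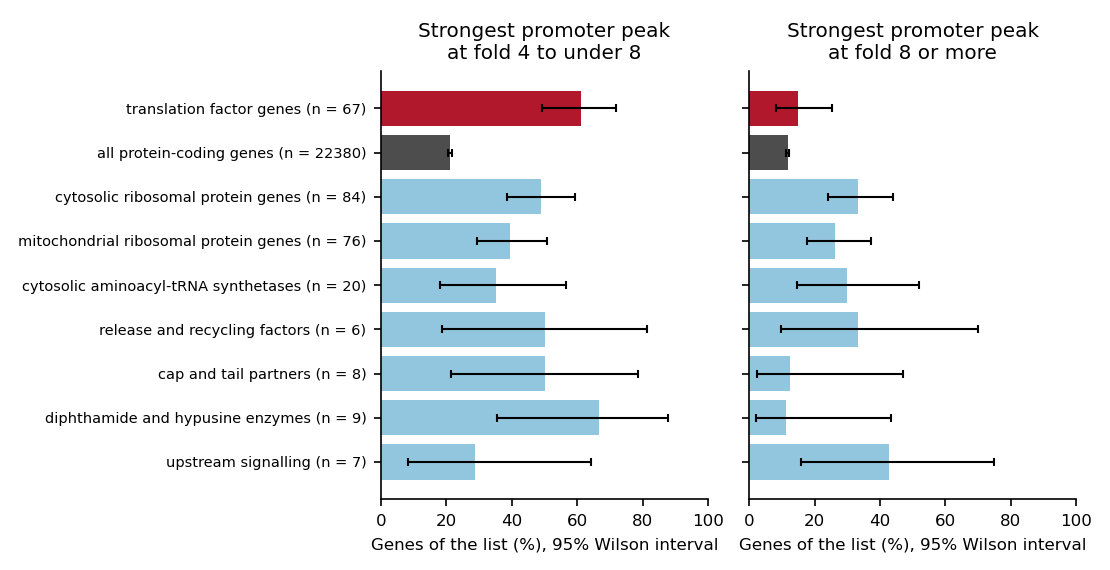
Share of genes (x axes, %) of the translation factor set, of all protein-coding genes and of 7 other translation gene lists whose strongest high-confidence promoter peak had a fold enrichment from 4 to under 8 (left) or of 8 or more (right), with 95% Wilson intervals. The translation factor genes stand at 61.2% on the left, against 21.0% of all genes, and at 14.9% on the right, against 11.7%.

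The peaks themselves were modest. The 56 promoter peaks had a pileup, which counts the WT fragments that cover the summit, of 26 to 131 with a median of 37.5 (34 to 45, from order statistics), against a median of 42 over all 7120 promoter peaks of protein-coding genes. Their median fold enrichment, the pileup plus 1 over the local control level plus 1, was 6.0 (5.14 to 7.01), against 6.54. A fold enrichment of 8 or more was reached by 11 of 56 peaks (19.6%, 11.3 to 31.8), against 33.6% of all promoter peaks, and of 20 or more by 1. The control level stood at its genome-wide floor of 5.42 fragments at 45 of 56 peaks, where a pileup of 25 was needed for fold 4. At 16 of 56 peaks (28.6%) the pileup was within 1 Poisson SD of the fold minimum, against 18.0% of all promoter peaks.

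**Figure D2:**
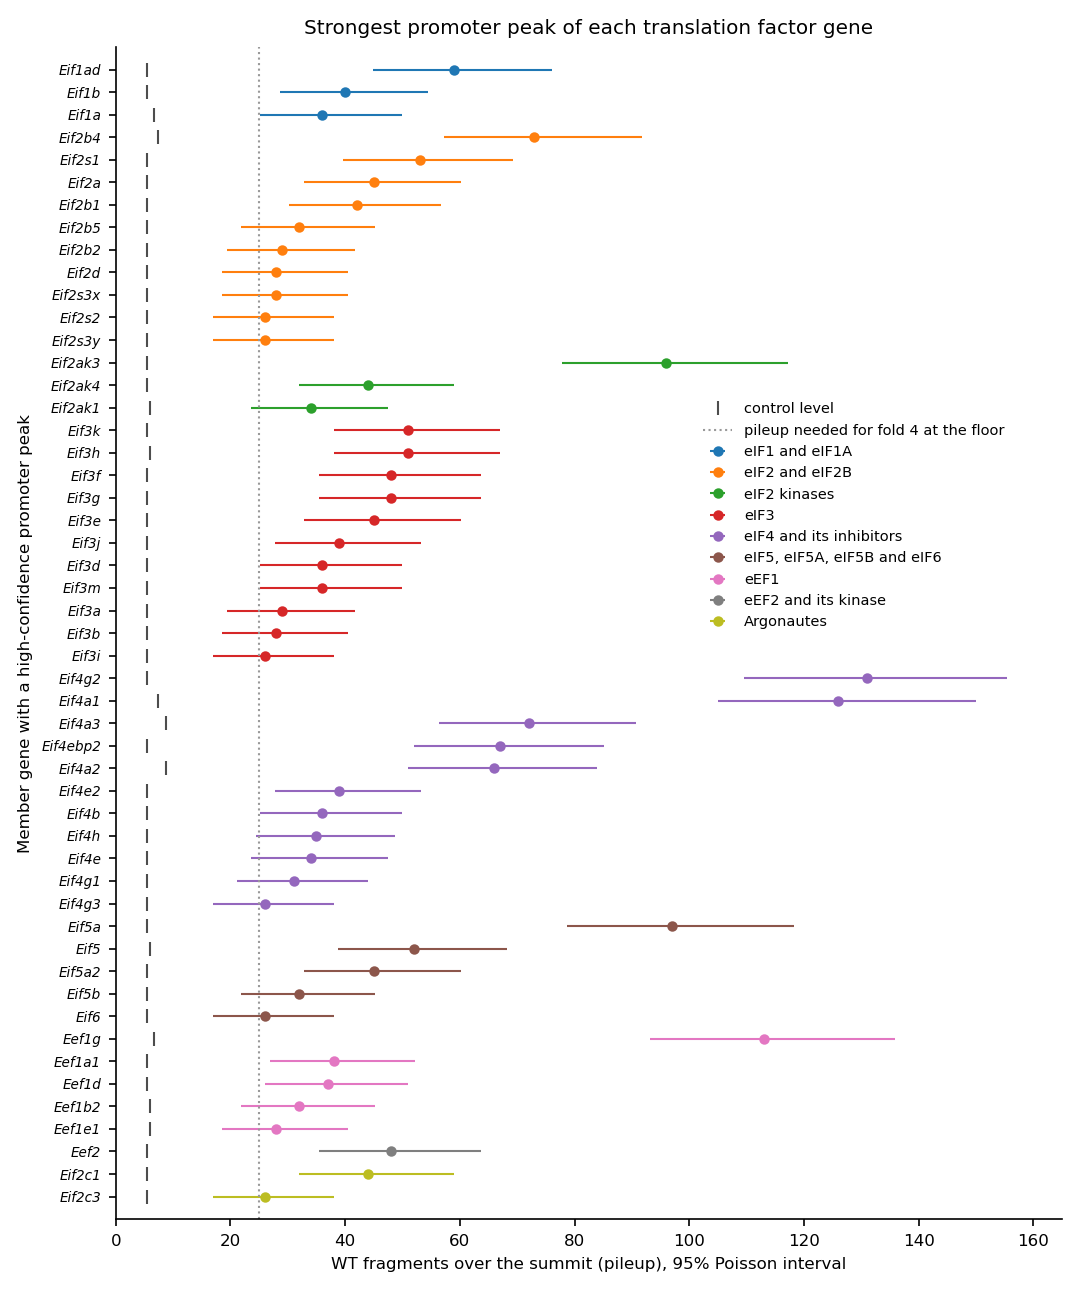
WT fragments over the summit (x axis) of the strongest high-confidence promoter peak of each of the 51 genes that had one, grouped by role and ordered by pileup, with exact 95% Poisson intervals. Grey ticks are the control levels and the dotted line is the pileup of 25 needed for fold 4 at the floor. Eif4g2, Eif4a1, Eef1g, Eif5a and Eif2ak3 stand at 96 to 131 fragments, and 6 genes at 26.

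Genes of eIF2, of eIF2B and of the alternative tRNA carriers Eif2a and Eif2d were bound at the promoter in 10 of 11 cases. This is 90.9% (62.3 to 98.4), against 32.7% of all protein-coding genes. eIF2 carries the initiator tRNA as a complex with GTP, and eIF2B recharges it. The promoter peaks of this group ran from 26 to 73 fragments with a median of 30.5 (26 to 53), an interval that holds the 42 of all promoter peaks. The highest was at Eif2b4, an eIF2B subunit, with 73 fragments (exact Poisson interval 57.2 to 91.8) where the control stood at 7.35, and with a fold enrichment of 8.86 (6.97 to 11.1), at chr5:31495015-31495801 over a UTR exon and shared with the start of Snx17. Eif2s1, which encodes the alpha subunit that the eIF2 kinases phosphorylate, had 53 fragments and a fold enrichment of 8.41. Eif2s3x and Eif2s3y, the X and Y copies of the gamma subunit, had 28 and 26 fragments. The intervals of these paralogs (18.6 to 40.5 and 17.0 to 38.1) overlapped over most of their length. The labels give no sex of the mice, so the numbers of X and Y chromosomes behind these counts are not known. Eif2b3 was the only gene of this group without a deposited peak.

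Of the 4 eIF2 kinases, 3 had a promoter peak (75%, 30.1 to 95.4), an interval that holds the 32.7% of all protein-coding genes. Eif2ak3 encodes PERK, the kinase that senses unfolded protein in the endoplasmic reticulum, and had 96 fragments (77.8 to 117) with a fold enrichment of 15.1 (12.3 to 18.4) at chr6:70793821-70794925, 288 bp upstream of the start. Eif2ak4 (GCN2, which senses uncharged tRNA) had 44 fragments, and Eif2ak1 (the heme-regulated kinase) had 34. The interval of Eif2ak3 did not overlap those of the other bound kinases. Eif2ak2, the double-stranded RNA-dependent kinase PKR, had no deposited peak, and its nearest high-confidence summit lay 23.3 kb from its start site.

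The genes of the scaffold eIF3 were bound within a narrow range. Of 13 subunit genes, 11 had a promoter peak (84.6%, 57.8 to 95.7), against 32.7% of all protein-coding genes. Their peaks had 26 to 51 fragments and fold enrichments from 4.21 to 8.10. The highest was Eif3k with 51 fragments (38.0 to 67.1), 4 bp from the start and within 1 kb of the start of Map4k1, and Eif3h also had 51. No eIF3 gene had a peak in its body. Eif3c and Eif3l had no deposited peak, although Eif3c is a core subunit of the complex.

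The eIF4 group had the widest spread, from 26 to 131 fragments at 11 of 16 genes (9 of 11 factors, and 2 of 5 inhibitors and other genes). The 11 bound genes are 68.8% of the group (44.4 to 85.8), against 32.7% of all protein-coding genes. Eif4g2 encodes DAP5, a relative of eIF4G that does not bind the cap-binding protein. It had the strongest promoter peak of the set: 131 fragments (110 to 155), a fold enrichment of 20.6 (17.2 to 24.4) and a width of 1862 bp at chr7:118225420-118227281. The summit lay in an intron, 80 bp upstream of a start site inside the gene. Eif4a1, the RNA helicase that unwinds leaders, had a peak of 126 fragments (105 to 150) and a fold enrichment of 15.2 (12.7 to 18.1) at chr11:69484347-69485302, with a core 5 bp from the summit. This summit lay over a noncoding exon at a start site inside the gene. A second Eif4a1 peak of 57 fragments (43.2 to 73.9) lay 20 bp from the most upstream start site. The paralog Eif4a2 had 66 fragments (51.0 to 84.0) and a fold enrichment of 6.91 near its most upstream start. The internal Eif4a1 peak stood above that of Eif4a2, but the interval of the Eif4a1 peak at the most upstream start overlapped it. The scaffolds Eif4g1 and Eif4g3 had 31 (21.1 to 44.0) and 26 fragments (17.0 to 38.1), far below Eif4g2.

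The genes that bind or restrain eIF4E were unequal. Eif4e, the cap-binding factor itself, had 34 fragments at a summit 828 bp inside the gene, and Eif4e2 had 39 at its start. Of the 3 genes of 4E-binding proteins, Eif4ebp2 had 67 fragments (51.9 to 85.1) with a fold enrichment of 10.6 (8.25 to 13.4), 263 bp upstream of the start, and a further peak of 35 fragments. Eif4ebp1 and Eif4ebp3 had no deposited peak, and their nearest high-confidence summits were 85.7 and 15.4 kb away. Eif4enif1, a transporter of eIF4E, and Eif4e1b had none either.

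All 5 genes with the symbols Eif5, Eif5a, Eif5a2, Eif5b and Eif6 were bound at the promoter (100%, 56.6 to 100), against 32.7% of all protein-coding genes. Eif5a encodes the hypusine-bearing factor that helps ribosomes through difficult peptide bonds. It had 97 fragments (78.7 to 118) and a fold enrichment of 15.3 (12.4 to 18.6) at chr11:69734628-69735539. That summit lay in an intron, 204 bp upstream of a start site inside the gene. Eif5a had a second peak of 27 fragments. Its paralog Eif5a2 had 45 fragments and a fold enrichment of 7.17. Eif5, Eif5b and Eif6 had 52, 32 and 26. The enzymes that make hypusine on eIF5A and diphthamide on eEF2 were bound at the promoter in 7 of 9 cases (45.3 to 93.7%). The share of all protein-coding genes was 32.7%. At fold 8 or more there was 1 of 9 (11.1%, 1.99 to 43.5), close to the 11.7% of all protein-coding genes.

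Among the elongation factors, 4 of 5 eEF1 genes and Eef2 were bound at the promoter. Eef1e1, which encodes a synthetase complex protein and not a factor, was bound with 28 fragments. With Eef1e1 counted, 5 of 6 eEF1 genes had a promoter peak (83.3%, 43.6 to 97.0), against 32.7% of all protein-coding genes. Eef1g, a subunit of the exchange factor that reloads eEF1A, had 113 fragments (93.1 to 136) where the control stood at 6.69, for a fold enrichment of 14.8 (12.2 to 17.8) at chr19:9041076-9041938, 81 bp into the gene. The other exchange subunits Eef1b2 and Eef1d had 32 and 37, and Eef1a1, the tRNA carrier, had 38 and 27 at separate start sites. Eef1a2, the form known from muscle and neurons, had no deposited peak. Eef2, the translocase, had 48 fragments (35.4 to 63.6) and a fold enrichment of 7.63, with the summit in an intron 590 bp past the start and a core 7 bp from it. Another 2 Eef2 peaks fell under the fold minimum at 2.2 and 2.51, with 38 and 57 WT fragments over control levels of 16.7 and 22.1, well above the floor. Its inhibitory kinase Eef2k had a single peak of 21 fragments under the minimum.

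Of the 4 small factor genes of start codon choice, 2 (Eif1a and Eif1b) had a high-confidence promoter peak. Eif1ax had no deposited peak and Eif1 missed the fold minimum. With the related Eif1ad, 3 of 5 genes had one (60%, 23.1 to 88.2), an interval that holds the 32.7% of all protein-coding genes. Eif1b had 40 fragments, Eif1a 36 and Eif1ad, an eIF1A-domain gene that shares its promoter peak with Banf1, had 59 with a fold enrichment of 9.35. Eif1, which keeps the scanning ribosome from starting at the wrong codon, had 38 fragments (26.9 to 52.2) but a control level of 9.36, which put its fold enrichment at 3.76 (2.69 to 5.13), just under the minimum. Eif1b, with 2 fragments more over a control level at the floor, passed at 6.39. The next values under the minimum were 3.43, at Eif2c2, Eif4e3 and Eef2k, and those just above were 4.02 at Eif2c2 and 4.05 at Eif4e. Counting error spans the minimum at each of these.

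The 12 genes without any deposited peak were Eef1a2, the short Eef2k entry, Eif1ax, Eif2ak2, Eif2b3, Eif2c4, Eif3c, Eif3l, Eif4e1b, Eif4ebp1, Eif4ebp3 and Eif4enif1. Their nearest high-confidence summits lay 12.2 to 90.0 kb from a start site. The 100 bases before and after each of the 307 annotated starts of the set were also searched for exact copies in the genome. Both sides were unique at 304 starts, among them all 39 starts of these 12 genes. The 3 exceptions were 1 start each of Eef1g, Eif1 and Eif2s2. Near-identical copies and gene bodies were not searched, and the part of alignment in the missing peaks was not tested.

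Summits at these promoters sat close to the start. Of 56, 47 (83.9%, 72.2 to 91.3) were within 150 bp of a start site, against 67.7% of all promoter peaks. Relative to the nearest annotated start of the gene, 37 lay upstream. That start can be inside the gene, so some of the 37 lay in an intron or exon, as at Eif4g2 and Eif5a. A start of another protein-coding gene was within 1 kb of 12 summits (21.4%, 12.7 to 33.8), against 13.6%, so the peak cannot be given to the translation factor alone. The partners were Ndufs1 (with Eef1b2), Tmed7 (Eif1a), Banf1 (Eif1ad), Serp1 (Eif2a), Gtf2h3 (Eif2b1), Snx17 (Eif2b4), Atp6v1d (Eif2s1), 2510006D16Rik (Eif3i), Map4k1 (Eif3k), Ccdc73 (Eif3m) and Txndc9 (both Eif5b peaks).

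**Figure D3:**
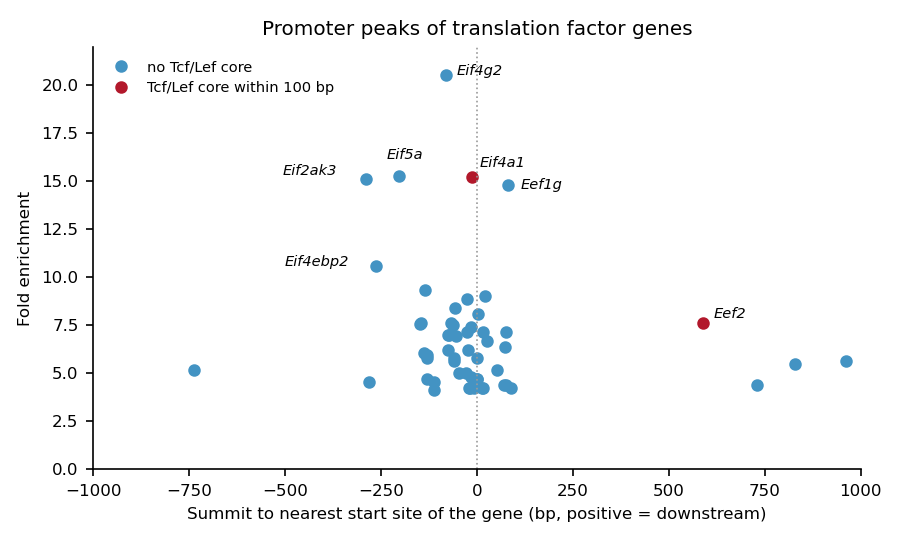
Fold enrichment (y axis) of the 56 high-confidence promoter peaks against the distance of the summit from the nearest start site of the gene (x axis, bp, positive downstream). Red points hold a Tcf/Lef core within 100 bp. Of the 56 summits, 47 lie within 150 bp, and the cores are at Eif4a1 and Eef2, 590 bp downstream.

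The sequence around promoter summits was GC-rich. The median GC content within 100 bp was 63.2%, against 62.7% over all promoter peaks. The Tcf/Lef core was present at 2 of 56 peaks (3.57%, 0.985 to 12.1), against 4.92%, and the ETS core CGGAAGT at 9 (16.1%, 8.69 to 27.8), against 13.9%. Both backgrounds were inside the intervals. The GC box CCCGCCC lay at 50% (37.3 to 62.7), against 38.5%, and the E-box CACGTG at 9 (16.1%, 8.69 to 27.8), against 8.65%, just under the lower bound. The YY1 letters AAGATGG lay at 10.7% (5.0 to 21.5) against 5.32%. CCAAT (23.2% against 26.4%), the Runx core TGTGGTT (3.57% against 5.29%), the NRF1 letters GCATGCG (3.57% against 4.56%) and the CRE letters TGACGT (8.93% against 11.8%) stood below the background, each with that value inside its interval. With 9 sequences searched and no test, no difference is called. The ETS sites of Eif1ad, Eif2b4 and Eif4a1, which belonged to the 8 genes of highest promoter fold, are shown in the same way, with the ETS core in capitals.
Eif1ad, chr19:5366639-5366665, minus strand: gacccggaagCGGAAGTcgaggaaccg
Eif2b4, chr5:31495494-31495520, minus strand: cagtgcacgcCGGAAGTtgtagtccgc
Eif4a1, chr11:69484760-69484786, plus strand: ccaaggccacCGGAAGTcccgccttcc

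**Figure D4:**
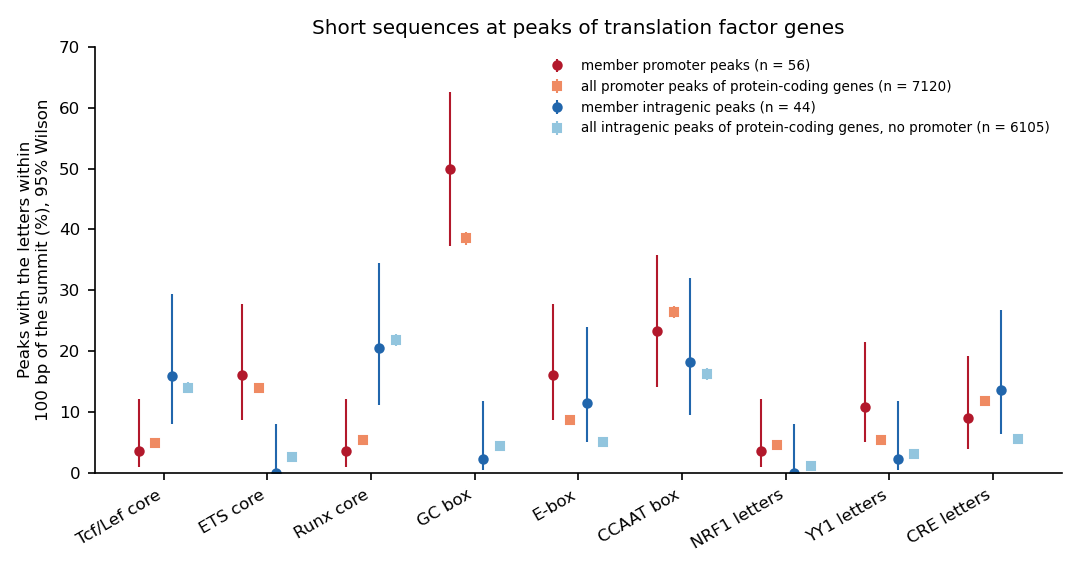
Share of peaks (y axis, %) with each of 9 short sequences within 100 bp of the summit, for 56 promoter and 44 intragenic peaks of translation factor genes (red and dark blue circles) and all such peaks of protein-coding genes (light squares), with 95% Wilson intervals. The Tcf/Lef core stands at 3.57% and 15.9% in the gene set, beside 4.92% and 13.9% in all peaks.

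Some messenger RNAs of the translation machinery begin with a C and a run of pyrimidines, the terminal oligopyrimidine start through which mTOR signalling controls their translation. An annotated start with a C followed by at least 4 pyrimidines was found in 8 of 67 genes (11.9%, 6.18 to 21.8), against 4.03% of all protein-coding genes and 19.0% of cytosolic ribosomal protein genes. All 8 (Eef1d, Eif2s1, Eif2s3x, Eif3f, Eif3h, Eif3m, Eif4b and Eif4g2) had a promoter peak, as did 43 of the other 59 genes (72.9%). Over all protein-coding genes the promoter share was 41.6% with such a start and 32.4% without one. The start that carries the letters was the one nearest to the summit in 3 of the 8 genes (Eif2s1, Eif3f and Eif3h). In the other 5 the summit was nearer to another start, and at Eif4g2 the lettered start lay 8.03 kb away. Annotated starts are not mapped caps, and a gene with more starts has more chances. The 15 first bases are shown for the longest runs, with the run in capitals.
Eif2s3x: CTTTTCTCTCCgagc
Eif3h: CTTTCTTCCTgtctg
Eef1d: CTCTCCTTTgcagtc
Eif3f: CTCTTTCTCggcaag

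Inside gene bodies, 44 high-confidence peaks fell in 6 genes, 27 of them in Eif4e3 and 12 in Eif2c2. They had 25 to 373 fragments with a median of 48 (39 to 57) and a median fold enrichment of 7.63 (6.23 to 9.04), against a median pileup of 46 over 6105 intragenic peaks of all protein-coding genes. Of the 44, 41 were intronic. The core lay near 7 of them (15.9%, 7.93 to 29.4) and the Runx core near 9 (20.5%, 11.2 to 34.5), against 13.9% and 21.8% in all intragenic peaks, and the ETS core near 0 of 44 (up to 8.03%), against 2.51%. Intragenic peaks were also set beside gene length. Among genes up to 50 kb 3 of 56 members (5.36%, 1.84 to 14.6) had one, against 8.56% of all genes, and among longer genes 3 of 11 (27.3%, 9.75 to 56.6), against 34.8%. The intervals of both length classes overlapped in the set, and Eif4e3 is 1 of the 3 long genes with a peak. Its length depends on the gene model, as described next. The coding transcripts in vM1 span 41.6 kb, under the limit, and the RefSeq gene has 71.0 kb, over it.

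Eif4e3, a divergent member of the cap-binding family, had no promoter peak but the strongest peaks of the whole set. The first, at chr6:99435962-99436801, had 373 fragments (336 to 413) where the control stood at 6.69, for a fold enrichment of 48.7 (43.9 to 53.8), 180 kb from the start. The next, at chr6:99338562-99339635, had 211 fragments and a fold enrichment of 33.0. Others had 122 (fold 19.2), 127 (18.2, with a core 6 bp away) and 106 fragments (16.7). These peaks cannot be assigned to Eif4e3 with certainty. Its 409 kb in GENCODE vM1 rest on a retained-intron model, the coding transcripts span 41.6 kb, and 26 of 27 peaks lie beyond that span, 3 of them inside the annotated body of Foxp1. In the RefSeq gene table of a later assembly Eif4e3 has 71.0 kb, and Foxp1, its direct neighbour and a transcription factor gene of T cell quiescence, has 597 kb, where vM1 gives it 341 kb. The 1 peak inside the coding span had 48 fragments, a fold enrichment of 7.63 and a core 30 bp from the summit, at chr6:99593425-99593925. Without Eif4e3 the set had 73 high-confidence peaks in place of 100, and 17 intragenic peaks with a median pileup of 52.

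Eif2c2, the Argonaute 2 gene, whose protein cuts small-RNA targets, held 12 intronic peaks within 83.3 kb, all inside the coding span. They had 35 to 138 fragments with a median of 56. The strongest, at chr15:72948021-72948901 and 66.8 kb from the start, had 138 fragments (116 to 163) and a fold enrichment of 21.7 (18.2 to 25.6). Peaks of 112 and 104 fragments (fold 17.6 and 16.4) followed, the latter 2.35 kb from the start with a core 13 bp from the summit. At the start itself Eif2c2 had only 2 peaks under the minimum, of 21 fragments each. Its paralogs showed another pattern: Eif2c1 and Eif2c3 had promoter peaks of 44 and 26 fragments and none in the body, and Eif2c4 had no peak.

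**Figure D5:**
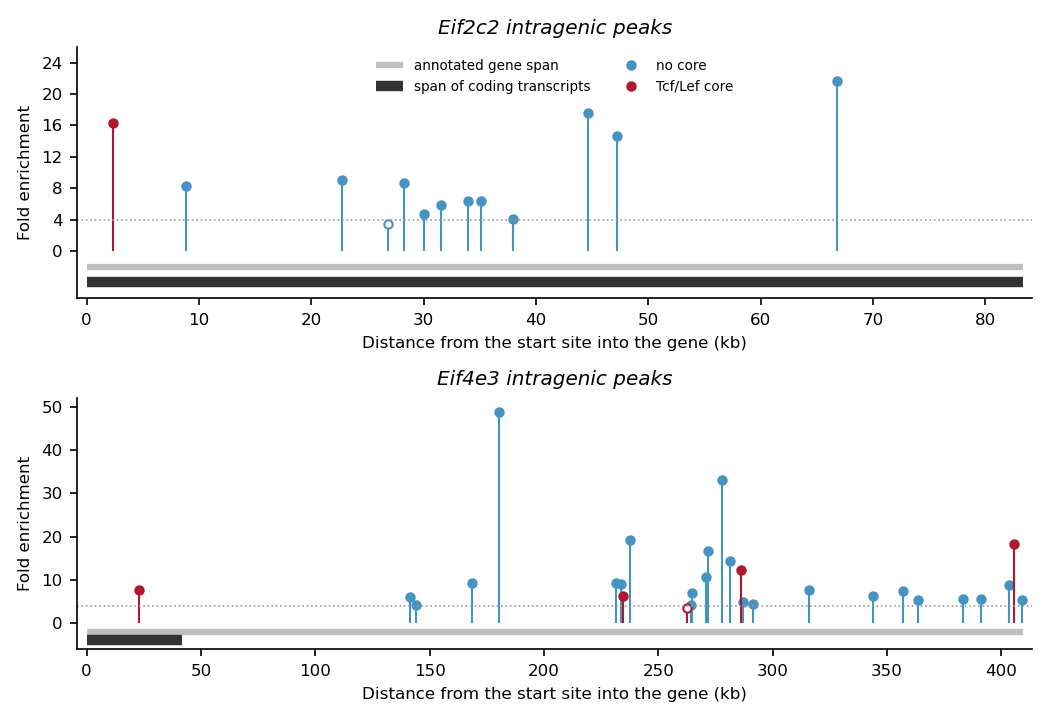
Fold enrichment (y axes) of the intragenic peaks of Eif2c2 (top) and Eif4e3 (bottom) against the distance of the summit from the start site (x axes, kb). Filled points are high-confidence peaks, open points lie under the dotted fold minimum of 4, red points hold a Tcf/Lef core, grey bars are the annotated spans and black bars the spans of coding transcripts. All 12 filled Eif2c2 points lie over the black bar, and 26 of 27 filled Eif4e3 points lie beyond it.

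The other 4 genes held 5 intragenic peaks. Eif2a, an initiator tRNA carrier used in alternative initiation, had 95 fragments (76.9 to 116) and a fold enrichment of 15.0 (12.1 to 18.2) over a coding exon 26.8 kb from the gene start, at chr3:58356001-58356807, with a core 77 bp away. This exceeded the 45 fragments at its own promoter, and the intervals did not overlap (32.8 to 60.2 at the promoter). Eif4g3 had 2 intronic peaks of 52 and 31 fragments, Eif2d 1 of 33 in an intron beyond the span of its coding transcripts that also lies in Rassf5, and Eif4e 1 of 25 with a core 8 bp away.

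Beside the gene set, other translation genes were also bound at the promoter, against the 32.7% of all protein-coding genes. The share was 82.1% (72.6 to 88.9) of 84 cytosolic ribosomal protein genes, 65.8% (54.6 to 75.5) of 76 mitochondrial ribosomal protein genes and 65.0% (43.3 to 81.9) of 20 cytosolic aminoacyl-tRNA synthetase genes, and the 76.1% of the translation factors lay inside the first and the last of these intervals and just above the mitochondrial one. Release and recycling factors had 5 of 6 (43.6 to 97.0%) and upstream signalling genes such as Mtor 5 of 7 (35.9 to 91.8%). Cap and tail partners such as poly(A)-binding proteins had 5 of 8 (30.6 to 86.3%), an interval that holds the share of all genes.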

How the data were processed

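Tcf1 ChIP-seq of 1 WT and 1 Tcf1-deficient library of naïve CD8+ T cells was analysed from the 1 deposited peak list. The authors aligned reads to mm9 with Bowtie2 2.2.5 and called peaks with MACS2 2.1.1. The deposited pileup is a signal, the coverage by WT fragments at the summit, not scaled. The deposited fold enrichment is a ratio with a pseudocount of 1, from which the control level was computed back. The deposited −log10 p-value and −log10 q-value are those of the caller.

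The members and lists were chosen with earlier results of these data known. Summits were placed on GENCODE vM1 (NCBIM37, which is mm9): promoter within 1 kb of any start site of a gene, intragenic otherwise within its span. High-confidence peaks met the study's limits (fold enrichment 4 or more, p below 1e-05, q below 0.05). Shares carry Wilson and pileups exact Poisson intervals at 95%, both for counting error only. No test across genes was run, since each group is 1 library. Named in full were the 8 genes of highest promoter fold, all genes with intragenic peaks (the 8 highest peaks), all peaks with a core and the values next to the fold minimum. Sequences came from the NCBIM37 genome, and 9 exact motifs were searched on both strands within 100 bp. Lengths and neighbours of Eif4e3 and Foxp1 in RefSeq came from a GRCm38.p6 table, whose coordinates were not used. Peak assignment was tested on simulated data. Python 3.11.15, numpy 2.4.6, pandas 2.3.3, scipy 1.17.1, pysam 0.24.0 and matplotlib 3.10.9 were used.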

Additional observations from a re-analysis of the deposited data

How the results depend on the processing

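The fold minimum moved the results most. At a fold minimum of 8 the promoter share of the translation factor genes was 14.9%, against 11.7% of all protein-coding genes, the share with a peak at either place 20.9%, and the number of high-confidence peaks 32. Under that minimum the median fold enrichment of promoter peaks was 10.6, their median pileup 73 and the median pileup of intragenic peaks 91, higher because only higher peaks remain. With a q under 1e-10 the promoter share was 58.2% and the share at either place 64.2%. The other 83 of 91 values under alternatives stayed inside the 95% interval of the reported value or, for the number of peaks, within 1.5 times of it. Among them the intragenic share, wide in its interval, was 14.9% with the most upstream start site only and 13.4% with promoters of 500 bp, in place of 8.96%. They came from all alternatives tried: the fold minimum of 8 and the q limit for the results not named above, no fold minimum, promoters of 500 bp or 2.5 kb, other choices of start site, overlap in place of the summit, factors proper only, a motif window of 50 bp and 8 values chosen later. These 8, with gene bodies limited to coding transcripts or without Eif4e3, were chosen after seeing the data, and both settings gave 73 peaks. No replicate could be left out. No paired analysis was possible because each group held 1 library. At this depth a promoter peak of 26 fragments (17.0 to 38.1) cannot be told apart from one of 21 fragments (13.0 to 32.1) that fell under the minimum.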
